A study of Rattus norvegicus with 10 samples.

Results

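Matricellular genes encode secreted proteins that sit in the matrix between cells and tune how cells attach, spread and receive growth factors. A set of 9 of them was followed in cells grown out of rat skull and limb bone: the thrombospondin genes Thbs1, Thbs2 and Thbs4 and their relative Comp, the SPARC-related genes Smoc2, Sparc and Sparcl1, periostin (Postn) and tenascin C (Tnc). The genes were listed with earlier results of this comparison known, and each was read from the probe chosen by the highest mean signal over all 10 arrays, which uses no difference between sites. The platform annotation named a probe for 6 of the 9, out of 13336 named genes on 22517 array rows. Each of the 6 had 1 probe, so brightness decided nothing. Thbs1, Comp and Tnc had no probe under their symbol, gene ID or RefSeq accession and were not analysed here.

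Calvarial osteoblasts, skull bone-derived cells (S-Bdc), and ulnar osteoblasts, limb bone-derived cells (L-Bdc), came from the same 5 male CD rats, whose bones were freed of soft tissue, epiphyses and marrow. The arrays held 5 S-Bdc and 5 L-Bdc cultures, 1 Illumina rat BeadChip array each, and no treatment is named for any of them. All grew from the cells of the third collagenase digest of 1 animal's bone, expanded in medium with newborn calf serum and harvested at passage 3 and 95% confluence, and such cultures can hold cells other than osteoblasts. Skull vault bone forms within a membrane and the ulna on a cartilage template. The comparison asks whether cells of both bones still differ when grown in separate cultures in the same medium.

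Thrombospondins bind calcium, collagens and cell surface receptors. Thbs1 and Thbs2 form trimers that restrain vessel growth, and the Thbs1 protein can release active TGF-beta from its latent form. Thbs4 and Comp form pentamers and are known from tendon, ligament and cartilage. SPARC, also called osteonectin, is an abundant non-collagenous protein of bone that binds collagen and mineral, and SPARCL1 (hevin) and SMOC2 share its calcium-binding domain. Periostin marks the periosteum and the periodontal ligament, and tenascin C appears in growing and healing connective tissue.

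Thbs4 and Smoc2 were far lower in S-Bdc than in L-Bdc, while Thbs2, Postn, Sparc and Sparcl1 showed no called difference. Thbs4 was 10.4-fold and Smoc2 6.02-fold lower in S-Bdc, and for neither gene did the ranges of the sites overlap, as was so for 7.0% of all probes. Differences are fitted values of S-Bdc minus L-Bdc on the scale of log2 normalised signal, over 5 pairs of cultures, each pair from 1 rat. Their SE and interval are limma's moderated ones, in which the variance of a probe is drawn toward that of all probes. For Thbs4, Smoc2, Thbs2 and Postn this SE is smaller than that of their own 5 pair differences. Their intervals therefore understate the spread between rats. A gene is called where limma's p-value, adjusted over all probes, is under 0.05. Of the 6 genes 2 were called, both lower in S-Bdc and 0 higher, with 3 at an unadjusted p under 0.05. Over all probes 9.1% were called, 4.43% higher and 4.68% lower in S-Bdc (997 and 1053 probes, against 513 and 357 with no normalisation between arrays and 125 and 84 from the processed intensities with a floor). Since the genes were listed with these differences in view, their count, differences and p-values describe them and are no independent test. The median difference was -0.0068 over the 6 genes and -0.0015 over all probes. In bulk cultures fewer cells of a type and less RNA per cell cannot be told apart.

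**Figure D1:**
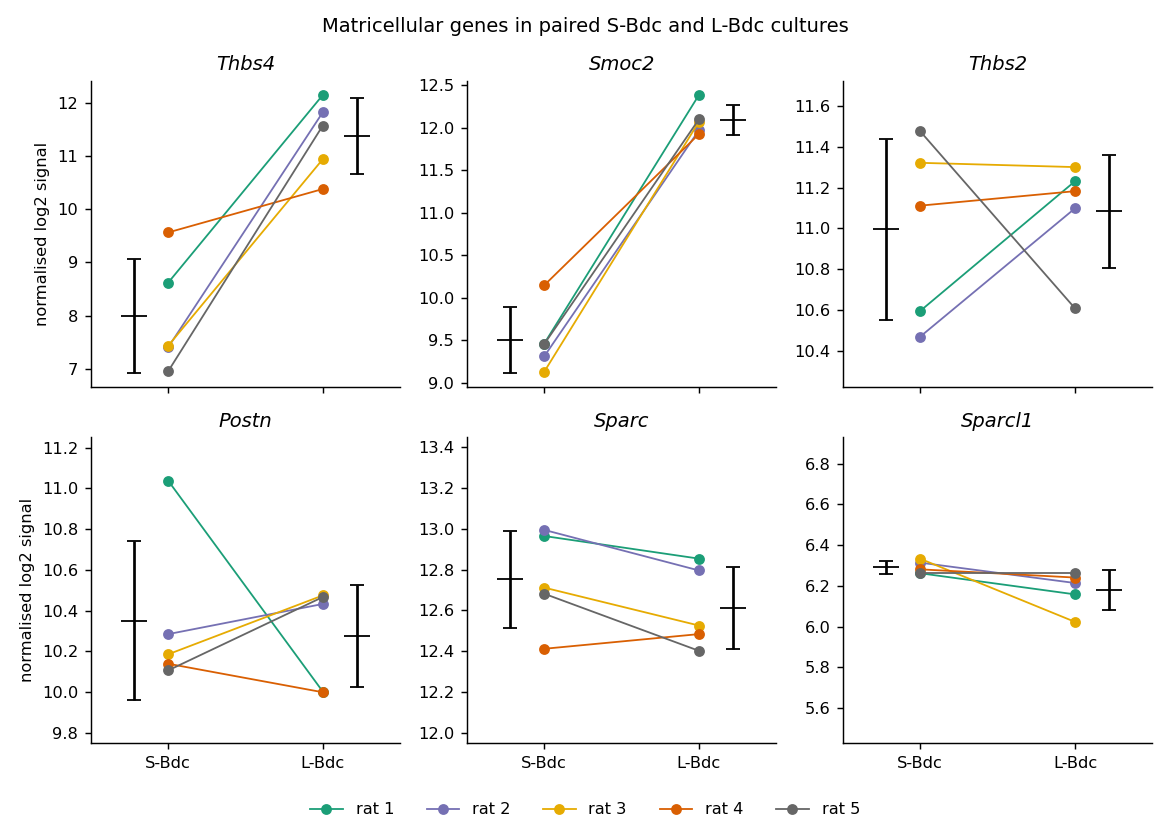
Normalised log2 signal of 6 matricellular genes in S-Bdc (left of each panel) and L-Bdc (right), with a line joining the 2 cultures of a rat and a bar for the mean and SD of 5 cultures beside each site. The vertical scale differs between panels. Thbs4 and Smoc2 separate the sites in every rat, whereas the sites overlap for the other 4 genes.

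Thbs4 encodes the thrombospondin found in tendon and muscle matrix. Its normalised log2 signal in rats 1 to 5 was 8.62, 7.40, 7.43, 9.56 and 6.95 in S-Bdc, and 12.14, 11.82, 10.94, 10.38 and 11.57 in L-Bdc. The highest S-Bdc culture and the lowest L-Bdc culture were both from rat 4. On the linear scale of the deposited processed intensities, S-Bdc read 334, 109, 112, 699.7 and 63.1 units and L-Bdc 4499, 3575, 1913, 1279 and 3005 units. All 10 values lay above the background range, which reached 8.51 units. The fitted difference was -3.38 ± 0.44 (95% interval -4.37 to -2.38, adjusted p = 0.00129, lower in 5 of 5 pairs), the first in size among 22517 probes. Without rat 4 it was -4.01, or 16.1-fold, and without rat 5 it was -3.06, or 8.34-fold. The processed intensities with a floor of 16 units gave -3.87 but did not pass the test (adjusted p = 0.141).

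The bases upstream of Thbs4 are shown beside those of Sparc, since Thbs4 had the largest difference of all probes and Sparc was bright at both sites and not called. The sequences are RefSeq's on build GRCr8, the 250 bases before each start site, at chr2:25760346-25760595 and chr10:40038817-40039066, both on the minus strand. Capitals mark matches on either strand to the RUNX core (TGTGGT), read by the osteoblast factor RUNX2, and to the SMAD box (CAGAC), read by the effectors of TGF-beta.
Thbs4: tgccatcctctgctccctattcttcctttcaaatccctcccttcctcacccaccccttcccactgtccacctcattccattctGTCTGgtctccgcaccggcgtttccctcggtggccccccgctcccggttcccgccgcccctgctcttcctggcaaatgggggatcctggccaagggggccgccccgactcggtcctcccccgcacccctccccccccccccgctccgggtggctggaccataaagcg
Sparc: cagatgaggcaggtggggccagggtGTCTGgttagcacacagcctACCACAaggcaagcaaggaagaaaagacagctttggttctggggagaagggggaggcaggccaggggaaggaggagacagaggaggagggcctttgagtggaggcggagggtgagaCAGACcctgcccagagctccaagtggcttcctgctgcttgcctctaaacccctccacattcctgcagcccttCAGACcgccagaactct
The Thbs4 stretch held 1 SMAD box, 167 to 163 bases before the start, and no RUNX core. The Sparc stretch held 3 SMAD boxes and 1 RUNX core, with no base shared between matches. Neither held the TATA box letters TATAAA or the AP-1 letters TGANTCA. Among 33469 promoter windows of this length, 42.9% held a SMAD box, 14.5% a RUNX core, 12.9% TATAAA and 6.34% TGANTCA. These matches describe letters and are not sites shown to be bound.

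Smoc2 encodes a calcium-binding matrix protein related to SPARC. Its normalised log2 signal in rats 1 to 5 was 9.46, 9.31, 9.13, 10.15 and 9.46 in S-Bdc, and 12.39, 11.97, 12.07, 11.93 and 12.10 in L-Bdc. The L-Bdc cultures varied less than the S-Bdc cultures (SD of 0.18 against 0.386), and rat 4 was again the highest of S-Bdc and the lowest of L-Bdc. The deposited processed intensities averaged 691 units in S-Bdc, against 4358 units in L-Bdc, and every culture of both sites was above background. The difference of -2.59 ± 0.15 (95% interval -2.92 to -2.26, adjusted p = 1.58e-05) ran the same way in 5 of 5 pairs and had rank 5 in size among all probes. It stayed past the threshold under each of 13 alternatives (adjusted p of 7.02e-13 to 0.0419).

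Thbs2, the other measured thrombospondin gene, did not separate the sites. Its normalised log2 signal in rats 1 to 5 was 10.60, 10.47, 11.32, 11.11 and 11.48 in S-Bdc, and 11.23, 11.10, 11.30, 11.18 and 10.61 in L-Bdc. The signal was lower in S-Bdc in rats 1 and 2 and higher in S-Bdc in rat 5, with rats 3 and 4 nearly level. The difference was -0.089 ± 0.18, with a 95% interval of -0.50 to 0.33 (adjusted p = 0.887). In the RefSeq gene order Thbs2 is the protein-coding gene next to Smoc2 on rat chromosome 1.

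The measured neighbours of Thbs4 and Smoc2 on the chromosome were looked at after these values were seen. Of the 5 protein-coding genes on each side of Smoc2, 3 were measured, Dact2, Thbs2 and Phf10, and 0 were called by limma (0 at an unadjusted p under 0.05). Dact2 was above background on 0 arrays and Phf10 on 2, so of these 3 Thbs2 alone was measured well above background. Beside Thbs4, 5 of 10 neighbours were measured and 0 were called by limma (1 at an unadjusted p under 0.05). Among them Zfyve16, an endosome protein gene, differed by 0.20 ± 0.08 (adjusted p = 0.219), and Tent2, a poly(A) polymerase gene, by -0.18 ± 0.10 (adjusted p = 0.40), each above background on all 10 arrays. The others were above it on fewer, Ankrd34b on 7 and Fam151b and Spz1 on 5 each. Over all probes 9.1% were called, so 0 calls among so few neighbours of Smoc2 or Thbs4 say little.

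Postn encodes periostin, a collagen-binding protein with fasciclin domains. Its deposited intensity in rats 1 to 5 was 2057, 1196, 1113, 1076 and 1051 units in S-Bdc, and 972, 1332, 1372, 971 and 1366 units in L-Bdc. The S-Bdc culture of rat 1 stood above all other cultures. The log2 difference of 0.076 ± 0.17 (95% interval -0.31 to 0.46, adjusted p = 0.901) was above 0 in 2 of 5 pairs and was -0.17 (adjusted p = 0.304) without rat 1.

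Sparc, the osteonectin gene, was bright in every culture. Its normalised log2 signal in rats 1 to 5 was 12.96, 13.00, 12.71, 12.41 and 12.68 in S-Bdc, and 12.85, 12.80, 12.53, 12.48 and 12.40 in L-Bdc. Rats 1 and 2 were the highest at both sites, and the spread between rats was wider than the step between sites. The difference was 0.14 ± 0.06 (adjusted p = 0.227, 4 of 5 pairs above 0), and its own 95% interval ran from 0.0087 to 0.27 before adjustment. With the arrays aligned by median scaling in place of quantile normalisation it was 0.26 and passed the test (adjusted p = 0.0322).

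Sparcl1, the hevin gene, was dim. Its deposited intensity in rats 1 to 5 was 15.6, 18.3, 19.5, 16.6 and 15.7 units in S-Bdc, and 10.3, 13.0, 3.82, 14.3 and 15.7 units in L-Bdc. It rose above background on all 5 S-Bdc arrays, against 4 of 5 for L-Bdc, and rat 3 held both the highest S-Bdc and the lowest L-Bdc value. The fitted difference was 0.11 ± 0.06 (adjusted p = 0.353). The offset of 50 units added before taking log2 is larger than these signals and shrinks their difference, which was 0.21 with an offset of 16 (adjusted p = 0.328).

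**Figure D2:**
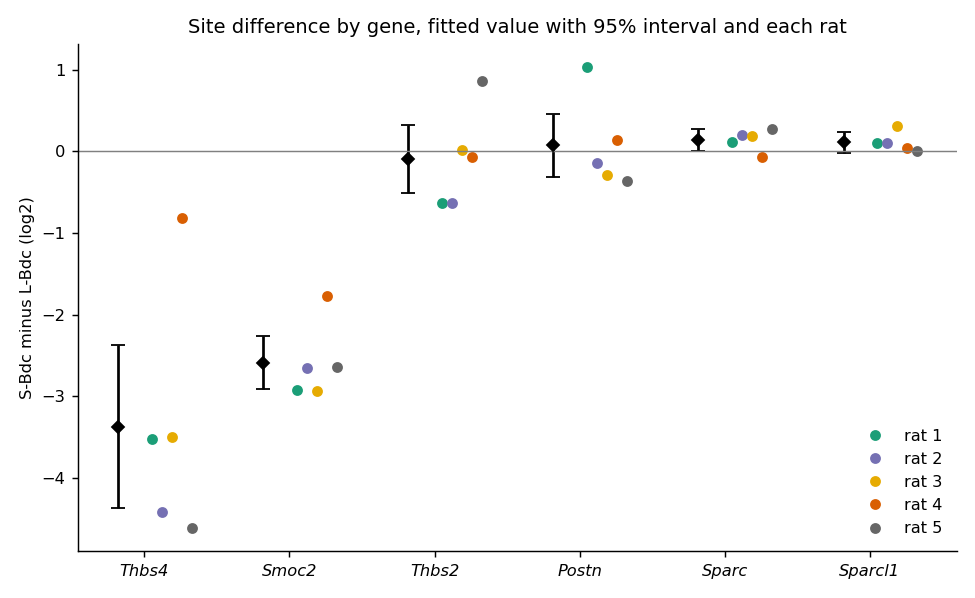
S-Bdc minus L-Bdc on the log2 scale for the 6 genes, with the fitted value and its 95% interval as a black diamond and the 5 rats as coloured points. The intervals of Thbs4 (-4.37 to -2.38) and Smoc2 (-2.92 to -2.26) lie far below 0, and rat 4 is nearest to 0 for both.

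Of the 6 genes, 5 varied between rats more than most probes did, the exception being the dim Sparcl1. Among 9092 probes above background on all 10 arrays, cultures of a site had a median SD of 0.127 for S-Bdc, against 0.118 for L-Bdc. These probes needed only to exceed 8.51 units. The offset of 50 units narrows the SD of dim ones, which can raise the rank of a bright gene. Thbs4 had an SD of 1.07 in S-Bdc, against 0.709 in L-Bdc, higher than 99.9% and 99.8% of these probes. Thbs2 (0.444 and 0.276), Postn (0.389 and 0.251) and Smoc2 (0.386 and 0.18) had SDs above 97.8% or more of the probes in S-Bdc and above 83.1% or more in L-Bdc. For Sparc, with SDs of 0.238 in S-Bdc, against 0.2 in L-Bdc, the shares were 88.5% and 88.4%. Sparcl1 was not above background throughout, so its SD of 0.031 in S-Bdc, against 0.096 in L-Bdc, has no such rank.

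Rat 4 narrowed the site difference of both called genes, and of Thbs4 far more than of most genes. The pair difference of Thbs4 was -3.53, -4.42, -3.51, -0.82 and -4.62 in rats 1 to 5, so that of rat 4 was 0.203 times the mean of the other rats. For Smoc2 the pair differences were -2.93, -2.66, -2.94, -1.78 and -2.64, with a ratio of 0.637 in rat 4. Both sites of the rat contributed. The S-Bdc culture of rat 4 lay 48.8% of the way from the other S-Bdc cultures to the other L-Bdc cultures for Thbs4 and 28.9% for Smoc2, and the L-Bdc culture lay 30.9% and 7.39% of the way back. Over the 144 called probes whose other rats differed by at least 1 on the log2 scale, the corresponding medians were 10.2% for S-Bdc and 5.43% for L-Bdc.

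These 144 probes had a median ratio of 0.771 in rat 4, lower among the 50 that were lower in S-Bdc (0.674) than among the 94 that were higher in S-Bdc (0.872). In the other rats the median ratio of such probes lay between 0.871 and 1.08. It lay between 0.949 and 1.06 among those lower in S-Bdc. Among those higher in S-Bdc it lay between 0.806, in rat 2, and 1.09, so rat 4 was not the lowest there. Thbs4 had rank 5 from the smallest ratio of the 144 in rat 4. Of the 4 below it 2 had names, the limb patterning gene Hoxd10 (0.0603) and the lubricin gene Prg4 (0.115), and the next above it was Gpr15lg (0.228), all named after their values were seen. Over all 2050 called probes the median ratio in rat 4 was 1.01, so the narrowing was seen in the large differences, and mainly in those lower in S-Bdc. Whether the cultures of rat 4 differed in their mix of cells was not tested.

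**Figure D3:**
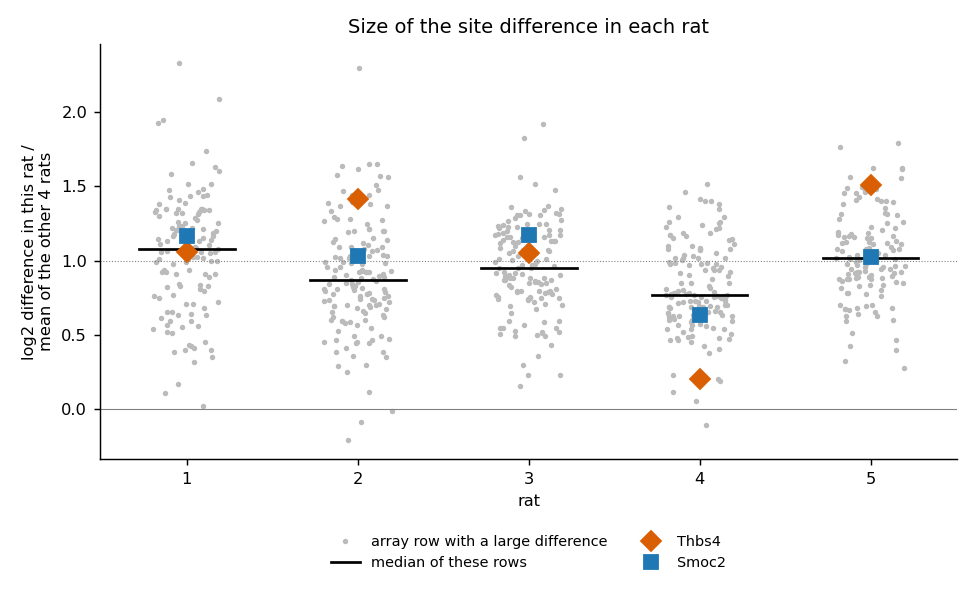
For each rat, the log2 site difference in that rat divided by the mean of the other 4 rats, for called probes with a difference of at least 1 in those 4 (grey), their median (black line), Thbs4 (diamond) and Smoc2 (square). In rat 4 the median is 0.771, Smoc2 is at 0.637 and Thbs4 at 0.203.

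The named genes nearest in pattern to Thbs4 and Smoc2 are given as a description. Likeness was measured as the root mean square difference between profiles over the 10 arrays, each centred on its own mean and not scaled, so that genes with a large difference of the same sign come out nearest by construction. Nearest to Thbs4 was Smoc2 (0.739), then Gpr15lg, which encodes a ligand of the receptor GPR15 (0.892), and the whey acidic protein family gene Wfdc18 (0.942). Nearest to Smoc2 was Wfdc18 (0.267), then Serpine2, an inhibitor of thrombin and plasminogen activators (0.416), and Gpr15lg (0.418). Like Thbs4, Gpr15lg had its smallest gap in rat 4, at 7.57 for S-Bdc beside 8.11 for L-Bdc on the normalised log2 scale, where the other rats had 6.03 to 6.23 for S-Bdc beside 7.88 to 9.08 for L-Bdc. Its difference was -1.99 ± 0.27, that of Wfdc18 -2.30 ± 0.16 and that of Serpine2 -1.85 ± 0.09.

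Other matricellular genes differed in both directions. Of 27 listed, 20 had a named probe. S-Bdc showed 4 of them higher and 5 lower, and 11 were not called, where 9.1% of all probes were called, with a median difference of 0.0074. Among the 5 lower was the growth factor gene Pgf, above background on 3 of 5 S-Bdc arrays. Its call ended without rat 2, 3 or 4 in turn (highest adjusted p = 0.108), with no normalisation between arrays and with the floor. The lowest adjusted p-values were those of osteopontin, Spp1 (-1.81 ± 0.12, adjusted p = 3.13e-05), and of Tgfbi, a relative of periostin (-1.32 ± 0.12, adjusted p = 1.39e-04), both lower in S-Bdc. Ccn3, a growth-restraining member of the CCN family, was higher (0.86 ± 0.12, adjusted p = 0.00147), as was fibulin 1, Fbln1 (0.53 ± 0.09, adjusted p = 0.00426), whose call ended with no normalisation between arrays. From the processed intensities with a floor of 16 units, Spp1 alone of the 9 called genes passed the test. Relatives of the 9 genes are named next, after their values were seen. Smoc1, the sister gene of Smoc2, was above background on no S-Bdc array, against 2 of L-Bdc, and was not called (-0.26 ± 0.08, adjusted p = 0.0761). Tnn, a tenascin gene, was higher in S-Bdc, at 12.12 ± 0.18 against 11.72 ± 0.27 in L-Bdc on the normalised log2 scale (SD, n = 5 each, adjusted p = 0.00632 by limma), although the ranges overlapped and the call ended with no normalisation between arrays, with that floor and with no replicate block (highest adjusted p of 0.14 over the processing alternatives). Fstl1, whose protein carries a domain akin to that of SPARC, differed by -0.034 ± 0.06 (adjusted p = 0.852).

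In the CCN family 6 genes were measured and 3 were called, where 9.1% of all probes were, and they were looked at together after their values were seen. Besides Ccn3, Ccn1 (-0.67 ± 0.16, adjusted p = 0.0265) and Ccn4 (-0.36 ± 0.07, adjusted p = 0.00949) were lower in S-Bdc. The call of Ccn1 ended without rat 3 or rat 4 in turn (highest adjusted p = 0.116) and with the floor (adjusted p = 0.34), and that of Ccn4 with median scaling, no normalisation between arrays or the floor (highest adjusted p = 0.167). Ccn2, also known as Ctgf, differed by 6.9e-05 ± 0.06 with a mean of 13.22 at both sites, and Ccn5 and Ccn6 were not called (0.11 ± 0.11 and 0.0074 ± 0.05). Ccn6 was dim, at a mean of 20.3 deposited units in S-Bdc, against 19.9 in L-Bdc.

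**Figure D4:**
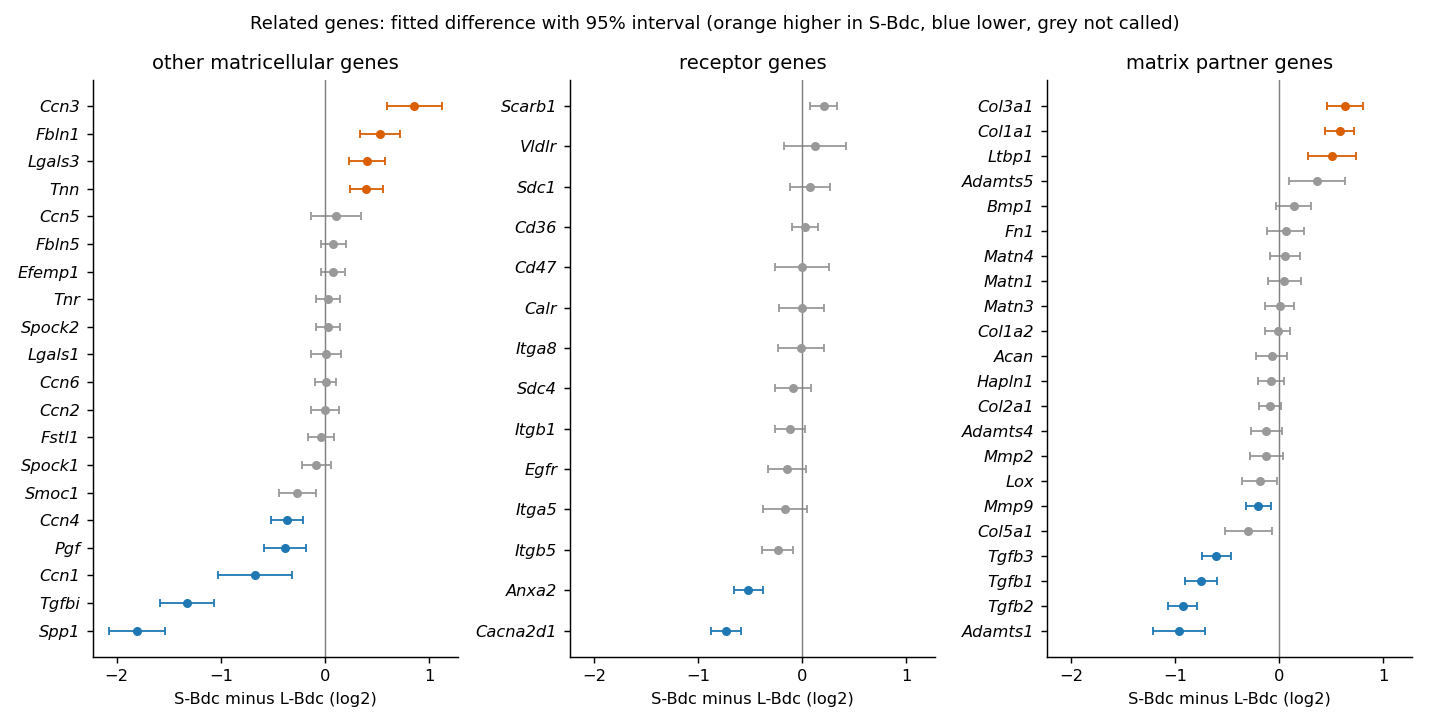
S-Bdc minus L-Bdc on the log2 scale, with its 95% interval, for the measured genes of 3 related lists. Of the genes listed as other matricellular, 4 lie above and 5, among them the growth factor gene Pgf, below 0 past the threshold. Of the receptor genes 2 lie below, and of the matrix partner genes 3 lie above and 5 below.

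Of 22 listed genes for receptors of these proteins, 14 had a named probe. S-Bdc showed none of them higher and 2 lower (4 at an unadjusted p under 0.05), where 4.43% of all probes were higher and 4.68% lower, with a median of -0.049. The 2 were Cacna2d1, a calcium channel subunit known in mouse neurons as a thrombospondin receptor (-0.73 ± 0.07, adjusted p = 1.58e-04), and Anxa2, an annexin that binds tenascin C (-0.52 ± 0.06, adjusted p = 7.18e-04). Both calls ended with the floor, and that of Anxa2 also with no normalisation between arrays (highest adjusted p of 0.0502 for Cacna2d1 and 0.0742 for Anxa2). The scavenger receptor gene Scarb1 (0.21 ± 0.06, adjusted p = 0.0595) and the integrin gene Itgb5 (-0.23 ± 0.07, adjusted p = 0.0622) did not pass. The thrombospondin receptor genes Cd47 and Cd36, named after their values were seen, differed by -0.0036 ± 0.11 and 0.032 ± 0.06. Cd36 was near background, above it on 4 S-Bdc and 2 L-Bdc arrays, so its small difference says little.

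Among 22 measured of 25 genes for matrix partners and enzymes, 3 were higher and 5 lower in S-Bdc, where 9.1% of all probes were called, with a median of -0.076. With the floor, Tgfb3 alone of the 8 passed the test. The lowest adjusted p-values were those of the TGF-beta ligand genes, Tgfb2 (-0.93 ± 0.06), Tgfb1 (-0.75 ± 0.07) and Tgfb3 (-0.60 ± 0.06), and of the collagen gene Col1a1 (0.58 ± 0.06). Fibronectin, Fn1 (0.063 ± 0.08), and the collagen gene Col1a2 (-0.014 ± 0.05), named after their values were seen, were not called.

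The called markers of tendon, where Thbs4 and Comp are known to be made, went the other way from Thbs4. Of 6 tendon markers, listed with earlier results known, 4 were measured and 3 were higher in S-Bdc, where 4.43% of all probes were higher. The 3 were tenomodulin, Tnmd (1.02 ± 0.11), fibromodulin, Fmod (1.36 ± 0.21), and dermatopontin, Dpt (1.44 ± 0.21), while keratocan, Kera, was above background on 0 arrays. The summed level of the measured markers came to 1395 to 1865 deposited units in S-Bdc, against 361 to 1029 in L-Bdc. Most of it was Fmod, with a mean of 1280.5 units in S-Bdc, against 507.7 in L-Bdc. The 3 calls ended with the floor (highest adjusted p = 0.167). Scx and Mkx, defining transcription factors of tendon, had no named probe. Of 8 measured cartilage markers 0 were called by limma (1 at an unadjusted p under 0.05), where 9.1% of all probes were called. Their sums overlapped at 101 to 176 units for S-Bdc, against 131 to 183 for L-Bdc. Col11a2 held the most, with a mean of 73.4 units in S-Bdc, against 89.0 in L-Bdc. Col2a1, the collagen that defines cartilage, was not above background on any array.

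Of 8 measured osteoblast markers, Col1a1 was higher and Spp1 lower in S-Bdc, where 9.1% of all probes were called. The sum over all 8 came to 8457 to 9071 units in S-Bdc, against 13325 to 15599 in L-Bdc. Spp1 alone set that order, since without it the other 7 summed to 4749 to 6886 units in S-Bdc, against 3356 to 4282 in L-Bdc, an alternative chosen after the values were seen. Alpl, Ibsp, Spp1 and Col1a1 were above background on all arrays, whereas Bglap rose above it on 3 S-Bdc arrays against 1 of L-Bdc, Sp7 on 2 against 1, Dmp1 on 1 against 1 and Phex on none. Runx2 had no named probe. Of 7 muscle, 3 endothelial, 4 osteoclast and macrophage and 3 adipocyte markers measured, 0 were called by limma (2, 0, 0 and 1 at an unadjusted p under 0.05). Beside the 9.1% called over all probes, 0 calls among so few markers say little about the mix of cells. Ptprc, Calcr, Adipoq, Cdh5, Vwf, Myog and Ckm were above background on 0 arrays. Of the same lists Ctsk, Fabp4, Cfd and Des were above background on every array, with Ctsk at a mean of 1800 units in S-Bdc, against 1982 in L-Bdc. Of 4 neuronal markers Tubb3 was lower in S-Bdc (-0.27 ± 0.07, adjusted p = 0.044), a call that ended without any 1 of 4 rats (highest adjusted p = 0.157), and Nefl was at background. The part of these cells in the differences of Thbs4 and Smoc2 was not tested.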

How the data were processed

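Total RNA of 10 cultures (5 S-Bdc, 5 L-Bdc) was hybridised to Illumina RatRef BeadChips, 1 array each. The authors deposited raw average bead signals exported from BeadStudio, an intensity on a linear scale that its values show to be unscaled and without negative values, and processed intensities, whose columns share 1 distribution with 24.0 to 24.1% of values at or below 0. BeadStudio settings are not given in the sources used here. Raw and processed rows carried different identifiers and were paired through the rank of each row on every array. Each of 22517 raw rows found a single mutual partner, at most 0.264% away in rank, and gene names rest on this match and the platform annotation (13787 probes with 1 symbol, 8730 with none). 6 processed rows without a raw row were left out.

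Raw signals were corrected by normexp (offset 50), taken to log2 and quantile normalised. A model with rat and site was fitted across all probes with lmFit and eBayes (limma 3.58.1, R 4.3.3), with Benjamini-Hochberg adjustment over all probes and a threshold of 0.05. A log2 difference therefore understates the change of dim probes. The background range reached 8.51 deposited units, the size not exceeded by 95% of the values at or below 0. Array medians of raw signal lay at 40.6 to 48.1 units, and the number of arrays limits the precision. No slide or scan is named in the sources used here, so no batch was fitted.

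The study describes 5 matched pairs of cultures, and the sample titles number the cultures of each site. Cultures of the same number were taken to be from the same animal. Deviations from the site means correlated at 0.0597, 0.211, 0.25, 0.176 and 0.129 within rats 1 to 5, and the S-Bdc culture of rat 1 correlated best with the L-Bdc culture of rat 5 (0.284). The genes and the lists were chosen with earlier results of these data known. Named were all 9 genes, up to 4 genes of each related list with the lowest adjusted p, and the 3 nearest profiles. Other genes were named after their values were seen, among them markers at or near background. Marker sums take values below 0 as 0. The pipeline was tested on simulated data. Alternatives changed the offset, background correction, normalisation, source table (processed intensities with a floor of 16 or plus 50), dim probe filter and block, or left out 1 rat. The study's BeadStudio difference score was not computed.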

Additional observations from a re-analysis of the deposited data

Results flagged for a closer look

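The pair difference of Smoc2 in rat 4, at -1.78, lay far from those of the other 4 rats, which ran from -2.94 to -2.64, with a gap of 0.745 of the whole range. Postn in the S-Bdc culture of rat 1, at 11.04 on the normalised log2 scale, stood above the other 4 S-Bdc cultures at 10.11 to 10.28, with a gap of 0.809 of the range. These were 2 of 18 groups of 5 values examined, and chance alone sets apart about 1 group in 20. Thbs4 in rat 4 was not flagged, since its gap as a share of its wider range fell just short of the cut. Its pair difference was -0.82 there, against -4.62 to -3.51 in the other rats.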

How the results depend on the processing

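The 6 genes were refitted under 13 alternatives each. Smoc2 kept its call in all 13 and Thbs4 in 12, the exception being the processed intensities with a floor of 16 units (-3.87, adjusted p = 0.141), where the genes called fell to 1. Sparc passed the test under median scaling alone (0.26). Neither Thbs2 nor Postn was called under any of them, and their directions turned when 1 rat was left out, over -0.33 to 0.048 for Thbs2 and -0.17 to 0.19 for Postn. The number of probes called, 2050 in the report, was 1323 to 2219 with 1 rat left out, lowest without rat 3, 870 with no normalisation between arrays and 209 from the processed intensities with a floor. With no normalisation, 5 of the other matricellular genes and 1 receptor gene were called. With the floor, 1 other matricellular gene, 1 matrix partner gene and 0 receptor genes were called by limma (4 receptor genes at an unadjusted p under 0.05). The cause was not tested. With no replicate block, Thbs4 (adjusted p = 4.40e-04) and Smoc2 (9.26e-07) kept their differences of -3.38 and -2.59, and 1915 probes were called. No gene had a second probe to set beside the one used. Signals near background, as those of Sparcl1 and Smoc1, limit what could be detected.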
